A study of Mus musculus with 6 samples.

Results

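The 10 enzymes that carry glucose 6-phosphate to lactate in fast muscle, Gpi1, Pfkm, Aldoa, Tpi1, Gapdh, Pgk1, Pgam2, Eno3, Pkm and Ldha, were taken from a gene table of mouse gastrocnemius by gene name, which gave 11 rows of 55995, since Aldoa has a second row. RNA-seq was made from NSG mice (NOD/SCID/IL2Rγ-null, which lack mature lymphocytes), carrying under the skin of the left flank a tumour grown from cells of the human breast cancer line MDA-MB-231, injected with Matrigel. In the radiotherapy group (RT, 3 libraries) the tumour was irradiated locally at about 800 mm3 with a single dose of 10 Gy (6 MV X-rays, dose rate 6 Gy/min), and the gastrocnemius of the other side was collected 3 days later. The control group (CT, 3 libraries) carried the same tumour, labelled WT in both groups, and was not irradiated. For CT the labels give neither the tumour volume nor the day of collection, so differences in these cannot be told apart from irradiation. Age and sex are not given, and nothing says that each library came from its own mouse, so the p-values measure the spread between these libraries, which may be technical. The question the comparison addresses is how muscle outside the beam differs after the tumour is irradiated.

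Glycolysis splits glucose into pyruvate in the cytosol and yields ATP without oxygen. Fast-twitch fibres, which make up most of the gastrocnemius, rely on it for short, strong contractions and take most of the sugar phosphate from their own glycogen. Gpi1, Pfkm, Aldoa and Tpi1 form the upper part of the pathway, which consumes ATP, while Gapdh, Pgk1, Pgam2, Eno3 and Pkm form the lower part, which gains it. Ldha turns pyruvate into lactate and returns the NAD+ that Gapdh needs. Pfkm, Pgam2 and Eno3 are muscle isozymes whose loss in humans causes muscle glycogen storage diseases.

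None of the 10 enzymes passed the test over all genes (0 of 10 higher and 0 of 10 lower). Aldoa and Pgk1 were the members whose RT values all lay below the CT values, at 0.726 and 0.711 times the CT level. Of all tested genes, 19.3% were lower without overlap in that way. Pgam2 and Eno3 had high values in RT replicates 1 and 2, and values near or below those of CT in RT replicate 3. With that library left out, because it stood apart from its group, both passed the test as higher, at 2.90 and 1.96 times the CT level. Leaving it out removes the low RT value of both genes. RT replicates 1 and 2, which remain, correlated at 0.968, so the p-values rest partly on their closeness to each other. The same fit called 1.98% of all genes higher and 27.6% lower. The values are TPM, a share of all transcripts that the authors scaled for transcript length and library size. The total is the same in each library, so the depth is unknown and a rise in some genes lowers the share left for others.

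Promoter sequences are shown for Pgam2 and Eno3, the pair with the largest log2 differences when RT replicate 3 is left out, and for Pgk1, the enzyme with the lowest log2 change. Each runs 5′ to 3′ over the 250 bases before the RefSeq transcript start in GRCm38.p6, on the strand of the gene. The capitals mark a match to the MEF2 consensus, the binding motif of a family of muscle transcription factors, in Pgam2 (chr11:5803797-5804046, minus strand). In Pgk1 (chrX:106186850-106187099, plus strand) they mark ACGTG, the core of the hypoxia response element, on either strand. Eno3 (chr11:70656926-70657175, plus strand) held neither motif, so it has no capitals.
Pgam2: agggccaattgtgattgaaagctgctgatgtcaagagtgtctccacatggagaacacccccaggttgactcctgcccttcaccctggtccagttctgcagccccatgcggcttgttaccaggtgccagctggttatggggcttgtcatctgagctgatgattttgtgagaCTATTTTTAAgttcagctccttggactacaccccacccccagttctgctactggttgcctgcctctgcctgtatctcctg
Eno3: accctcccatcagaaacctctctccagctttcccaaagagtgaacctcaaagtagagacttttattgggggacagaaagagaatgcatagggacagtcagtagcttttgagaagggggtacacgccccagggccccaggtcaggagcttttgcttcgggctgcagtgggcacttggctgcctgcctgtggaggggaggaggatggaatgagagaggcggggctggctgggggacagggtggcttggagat
Pgk1: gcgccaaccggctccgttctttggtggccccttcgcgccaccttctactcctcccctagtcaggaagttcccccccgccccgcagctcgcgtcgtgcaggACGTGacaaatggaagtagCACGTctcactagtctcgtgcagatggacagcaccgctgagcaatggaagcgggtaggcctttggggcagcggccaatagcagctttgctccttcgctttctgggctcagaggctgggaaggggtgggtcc

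All 10 members matched a RefSeq promoter, with 17 start sites in all, 4 of them for Pfkm, 3 for Aldoa and 2 each for Pkm and Ldha. ACGTG stood on either strand in the windows of 5 members, Pfkm, Aldoa, Pgk1, Pkm and Ldha, and in 7 of the 17 windows of all 10 members. It was found in 16.6% of all 32851 promoter windows, and 18.5% of genes had it in at least 1 window. In Pgk1 it began 150 and 131 bases before the start. The MEF2 consensus was found in 1 member, Pgam2, at 80 bases before the start, and in 3.42% of all genes (2.92% of windows). The E-box CANNTG, the motif of the myogenic MyoD family among other factors, was found in 9 of 10 members, all but Gapdh, and in 69.3% of all genes, or in 14 of the 17 member windows and 66.2% of all windows. ACGTG within CACGTG overlaps an E-box and is read on both strands. A match describes these letters only and is no evidence of binding.

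TPM is per transcript length, so levels can be set side by side between enzymes. Aldoa, the aldolase that splits fructose 1,6-bisphosphate, was the most abundant in all 6 libraries, Gapdh the next, and Pgk1 the lowest of the 10. Eno3 ranked 3 in every library except RT replicate 3, where it ranked 7 and Pkm ranked 3. The other ranks changed between libraries of the same group, so no order among Pfkm, Tpi1, Pgam2, Pkm and Ldha held in all 6. Together the members made up 5.53%, 5.11% and 3.89% of all TPM in RT replicates 1, 2 and 3, against 5.07%, 5.55% and 4.58% in CT replicates 1, 2 and 3. The groups overlapped.

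**Figure D1:**
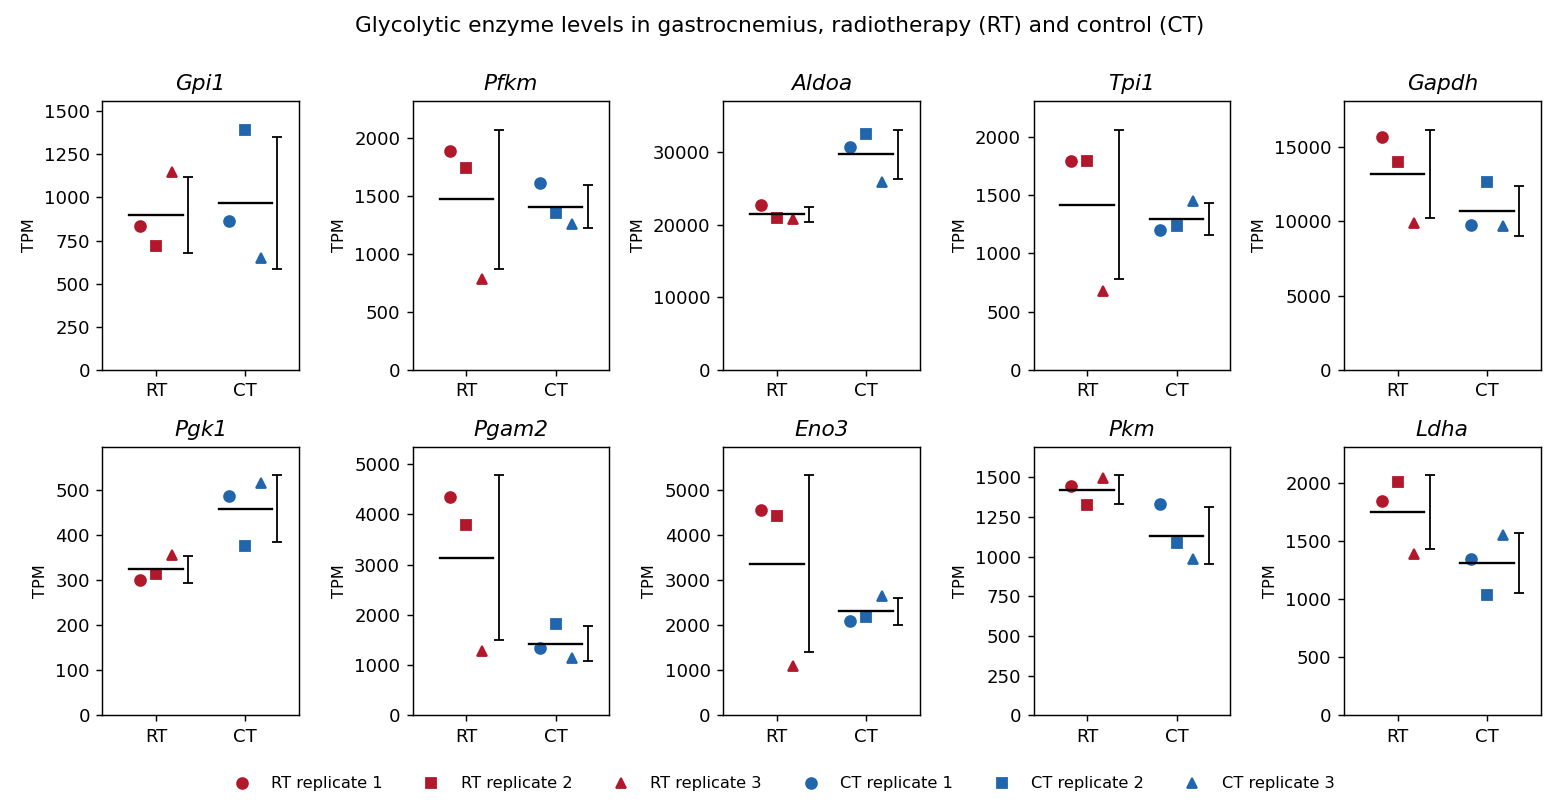
Level of each glycolytic enzyme (y axis, TPM, linear from 0) in 3 RT libraries (red, left) and 3 CT libraries (blue, right). Marker shape gives the replicate, the black line is the group mean and the error bar is its SD. For Aldoa and Pgk1 all RT points lie below all CT points, and in Pfkm, Tpi1, Pgam2 and Eno3 the triangle of RT replicate 3 lies far below RT replicates 1 and 2.

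Of the upper enzymes, Gpi1, which turns glucose 6-phosphate into fructose 6-phosphate, had 835, 716 and 1146 TPM in RT replicates 1, 2 and 3, against 861, 1392 and 647 TPM in CT replicates 1, 2 and 3. The CT values held both the highest and the lowest of the 6, and the log2 difference was -0.06 (95% interval -0.89 to 0.77, limma adjusted p = 0.937). Differences are RT minus CT on the log2(TPM + 1) scale, from limma with Benjamini-Hochberg adjustment over 11938 rows with a mean of at least 1 TPM. Pfkm, the muscle phosphofructokinase and the committed step of the pathway, had 1888, 1738 and 785 TPM in the RT replicates, against 1612, 1349 and 1259 TPM in the CT replicates. RT replicates 1 and 2 were the highest of the 6 libraries and RT replicate 3 the lowest, with a log2 difference of -0.03 (95% interval -0.90 to 0.85, limma adjusted p = 0.972).

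Aldoa had 22643, 20954 and 20765 TPM in RT replicates 1, 2 and 3, against 30698, 32412 and 25910 TPM in CT replicates 1, 2 and 3. The groups did not overlap, and every RT library was below the lowest CT library. The means were 21454 ± 1034 TPM in RT and 29674 ± 3370 TPM in CT (SD, n = 3 each), a log2 difference of -0.46 (SE 0.16, 95% interval -0.83 to -0.09). The limma p was 0.0215 before adjustment and 0.306 after it, so Aldoa did not pass. The RT values were the closest together of any member, with a coefficient of variation of 4.82%. The second Aldoa row, with another gene identifier, had at most 0.22 TPM in RT and 0.98 TPM in CT, and was not tested because its mean was under 1 TPM. Tpi1, which interconverts the triose phosphates made by aldolase, had 1787, 1787 and 677 TPM in the RT replicates, against 1200.3, 1234 and 1450.04 TPM in the CT replicates. It had the same shape as Pfkm, with the highest values in RT replicates 1 and 2 and the lowest in RT replicate 3 (log2 difference 0.00354, 95% interval -0.96 to 0.97, limma adjusted p = 0.997).

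Of the lower enzymes, Gapdh, which makes the first NADH of the pathway, had 15674, 13988 and 9878 TPM in the RT replicates, against 9745, 12654 and 9656 TPM in the CT replicates. RT replicates 1 and 2 were above all CT libraries and RT replicate 3 was within them (log2 difference 0.29, SE 0.23, limma adjusted p = 0.539). Pgk1, which makes the first ATP, had 300.01, 315 and 357 TPM in the RT replicates, against 486, 375 and 515 TPM in the CT replicates. Every RT library was below the lowest CT library, with means of 324 ± 29.5 TPM in RT and 459 ± 73.9 TPM in CT (SD, n = 3 each). The log2 difference was -0.49 (SE 0.25, 95% interval -1.08 to 0.10), with a limma p of 0.0912 before adjustment and 0.395 after it.

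Pgam2, the muscle phosphoglycerate mutase, had 4344, 3794 and 1279 TPM in RT replicates 1, 2 and 3, against 1339, 1811 and 1133 TPM in CT replicates 1, 2 and 3. RT replicates 1 and 2 were above every CT library, and RT replicate 3 was between CT replicates 3 and 1. The means were 3139 ± 1634 TPM in RT and 1428 ± 348 TPM in CT (SD, n = 3 each), with a log2 difference of 0.98 (SE 0.48, 95% interval -0.16 to 2.12, limma adjusted p = 0.386). Eno3, the muscle enolase, had 4559, 4424 and 1102 TPM in the RT replicates, against 2082, 2179.7 and 2652 TPM in the CT replicates. RT replicates 1 and 2 were above every CT library and RT replicate 3 was below every one. Its log2 difference was 0.29 (SE 0.55, 95% interval -0.99 to 1.58, limma adjusted p = 0.794), and its RT values had the widest relative spread of any member, a coefficient of variation of 58.3%.

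Pkm, the pyruvate kinase gene whose M1 form prevails in adult muscle, had 1447, 1324 and 1497 TPM in the RT replicates, against 1331, 1084 and 983 TPM in the CT replicates. A single CT value stood just above the lowest RT value, so the groups overlapped by that library alone (log2 difference 0.34, SE 0.23, limma adjusted p = 0.477). The row sums the transcripts of the gene, so the M1 and M2 forms were not told apart. Ldha, the lactate dehydrogenase subunit typical of fast muscle, had 1845, 2013 and 1396 TPM in the RT replicates, against 1346, 1036 and 1552 TPM in the CT replicates. RT replicates 1 and 2 were above every CT library and RT replicate 3 was within them (log2 difference 0.42, SE 0.26, limma adjusted p = 0.456).

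The counts are to be read beside all tested genes. In limma's test 5 genes were called higher and 2 lower, or 0.0419% and 0.0168% of 11938, against 0 and 0 of the 10 members. At an unadjusted p under 0.05, limma gave 141 genes higher and 1584 lower, and among the members only Aldoa. All 3 RT libraries were above every CT library in 0 of 10 members and in 1.73% of all genes, and below every CT library in 2 of 10 members and in 19.3% of all genes. The members' share on the lower side was thus close to that of all genes. The median log2 difference was 0.15 over the members and -0.36 over all tested genes, and 8 of 10 members, all but Aldoa and Pgk1, lay above that median. In all, 6 members were above 0 and 4 below, while 78.5% of all tested genes were below 0, a share that the sign counts of the lists that follow are to be read against. Counts without overlap in those lists are to be read against the 1.73% higher and 19.3% lower of all genes.

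RT replicate 3 stood apart from the other libraries of its group. Its log2 values correlated with those of RT replicates 1 and 2 at 0.850 and 0.851, whereas replicates 1 and 2 correlated at 0.968 with each other and the CT libraries at 0.938 to 0.950 among themselves. With the CT libraries RT replicate 3 correlated at 0.889 to 0.903, about as RT replicates 1 and 2 did at 0.903 to 0.922, so it was closer to CT than to its own group. Muscle fibre markers were abundant in every library, with a summed level of 57256, 59004 and 36456 TPM in the RT replicates over 6 genes, against 45260, 42398 and 44906 TPM in the CT replicates. The 5 neutrophil markers summed to 10.25, 18.0 and 2906 TPM in the RT replicates, against 78.3, 72.1 and 181 TPM in the CT replicates. The defining marker Ly6g was at 2.23 TPM in RT replicate 3, listed at 0 in the other two RT libraries and at most 0.19 TPM in CT. The 5 macrophage markers summed to 26.3, 36.8 and 155 TPM in the RT replicates, against 54.8, 17.2 and 35.4 TPM in the CT replicates. The sums of endothelial markers (49.4, 45.2 and 102 TPM in RT, against 74.4, 63.0 and 77.8 TPM in CT) and adipocyte markers (317, 295.5 and 598 TPM in RT, against 275, 265 and 329.72 TPM in CT) were also highest in RT replicate 3. Single markers did not all follow these sums. The macrophage sum in RT replicate 3 was mostly Cd68, at 121 TPM, and Csf1r (5.96 TPM) was also highest there. Adgre1 (2.20 TPM) and C1qa (24.1 TPM) were below their values in CT replicate 1 (3.41 and 32.5 TPM). Mrc1, at 1.45 TPM, was lower there than in RT replicates 1 and 2. The adipocyte sum was mostly Fabp4, at 587 TPM in that library, where Adipoq was the lowest of all libraries at 1.65 TPM. Of the endothelial markers, Cdh5 (37.95 TPM) and Emcn (19.9 TPM) were highest there, and Tek (1.88 TPM) was lowest.

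The sums of tendon, fibroblast and Schwann cell markers were lower in RT replicate 3 than in RT replicates 1 and 2. The 6 tendon markers summed to 54.8, 41.4 and 8.80 TPM in the RT replicates, against 18.7, 8.23 and 13.4 TPM in the CT replicates, with RT replicates 1 and 2 above every CT library as in Pgam2 and Eno3. Of 3 tendon markers tested, limma called 2 higher without RT replicate 3. That fit called 1.98% of all genes higher and 27.6% lower. The 6 fibroblast markers summed to 142, 155 and 95.3 TPM in the RT replicates, against 149.65, 112 and 177 TPM in the CT replicates. Among them Col1a1 and Col3a1, chains of fibrillar collagen, were higher in every RT library than in any CT library, as were 1.73% of all genes. Both were called higher by limma without RT replicate 3. The other fibroblast markers, Dcn, Dpt, Lum and Pdgfra, overlapped between the groups and were not called in either fit. The fibroblast sum in RT replicate 3 was mostly Dcn, at 76.3 TPM. Pdgfra went against that sum, with its highest value of all libraries in RT replicate 3 (1.90 TPM). The 5 Schwann cell markers summed to 142, 185 and 23.4 TPM in the RT replicates, against 131, 21.5 and 77.3 TPM in the CT replicates. Erythroid markers summed to 1307, 1245 and 847 TPM in RT, against 312, 764 and 1395 TPM in CT. Smooth muscle markers summed to 131, 93.3 and 96.1 TPM in RT, against 54.4, 85.5 and 80.8 TPM in CT. Satellite cell markers summed to 7.11, 6.23 and 16.7 TPM in RT, against 22.6, 20.8 and 13.6 TPM in CT. That sum was nearly all Cdh15, since Pax7 was at most 0.14 TPM and Myf5 at most 0.37 TPM.

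The 10 slow fibre genes summed to 1115, 2167 and 288 TPM in the RT replicates, against 1205, 94.05 and 1639 TPM in the CT replicates, so RT replicate 3 and CT replicate 2 were low. Whether these differences between libraries have a part in the values of the glycolytic enzymes was not tested. In bulk muscle, fewer cells of a type and less RNA per cell cannot be told apart.

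With RT replicate 3 left out, 2 against 3 libraries, 2 of 10 members were called higher by limma and 0 lower, while 1.98% of all genes were called higher and 27.6% lower. Pgam2 rose by a log2 difference of 1.53 (SE 0.245, adjusted p = 0.0147), and Eno3 rose by 0.97 (SE 0.183, adjusted p = 0.0202). Tpi1 at 0.47 (limma adjusted p = 0.0830), Ldha at 0.57 (0.0960) and Gapdh at 0.48 (0.117) came next in that fit and did not pass. Aldoa stayed at -0.44 (limma adjusted p = 0.121) and Pgk1 at -0.56 (0.0785). The median of all genes was then -0.57 and that of the members 0.42, with 10 of 10 members above the median of all genes. RT replicate 3 was left out because it stood apart from the rest of its group, a choice listed among the alternatives for every library in turn.

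**Figure D2:**
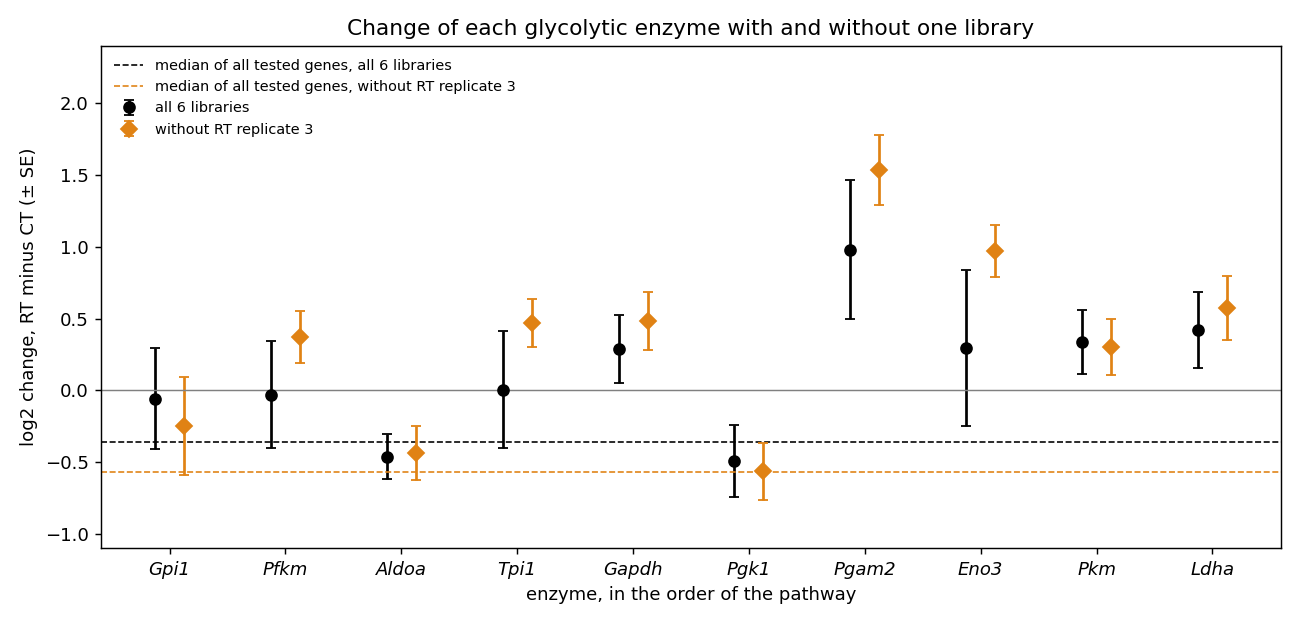
Log2 difference of each enzyme, RT minus CT (y axis, ± SE from limma), in the order of the pathway, from all 6 libraries (black circles) and without RT replicate 3 (orange diamonds). Dashed lines are the medians of all tested genes, -0.36 and -0.57. Pgam2 and Eno3 move up to 1.53 and 0.97 without RT replicate 3, while Aldoa, Pgk1 and Pkm move little.

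A ratio between enzymes within a library does not depend on how that library was scaled. Aldoa was taken as the base for this, because it was the most abundant, after its values were seen. Aldoa made up 40.9%, 41.0% and 53.4% of the TPM of all members in RT replicates 1, 2 and 3, against 60.5%, 58.4% and 56.6% in CT replicates 1, 2 and 3, so each RT library was below each CT library. Per 1000 TPM of Aldoa, 4 of the 9 other members were higher in every RT library than in any CT library and 0 were lower. Of all 11937 other genes tested, 7.92% were higher without overlap on this scale and 4.35% were lower. Since Aldoa itself was low in RT, this base favours higher values, for the members and for all genes alike.

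Gapdh had 692, 668 and 476 TPM per 1000 TPM of Aldoa in the RT replicates, against 317, 390 and 373 in the CT replicates. Pgam2 had 192, 181 and 61.6 in the RT replicates on that scale, against 43.6, 55.9 and 43.7 in the CT replicates. Both included RT replicate 3 above all CT libraries, by a smaller margin than RT replicates 1 and 2. Pkm had 63.9, 63.2 and 72.1 TPM per 1000 TPM of Aldoa in the RT replicates, against 43.4, 33.4 and 37.9 in the CT replicates, and here RT replicate 3 was the highest of all. Ldha had 81.5, 96.0 and 67.2 in the RT replicates on that scale, against 43.9, 32.0 and 59.9 in the CT replicates. All 4 act in the lower pathway or at its end, but so do Eno3 and Pgk1, which were not separated. Eno3, with 201, 211 and 53.1 in the RT replicates and 67.8, 67.2 and 102 in the CT replicates, overlapped through RT replicate 3. Pgk1, with 13.2, 15.0 and 17.2 in the RT replicates and 15.8, 11.6 and 19.9 in the CT replicates, was not separated from CT when set against Aldoa. Gpi1, Pfkm and Tpi1 overlapped too.

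Some ratios between other members were chosen after their values were seen and are given as descriptions. Ldha per Pgk1 was 6.15, 6.39 and 3.91 in the RT replicates, against 2.77, 2.76 and 3.01 in the CT replicates. Eno3 per Pgam2, the last steps before pyruvate kinase, was 1.05, 1.17 and 0.862 in the RT replicates, against 1.56, 1.20 and 2.34 in the CT replicates. The groups did not overlap in either ratio. Since both were picked with their values known, the separation carries no weight, and no share over other pairs was computed.

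**Figure D3:**
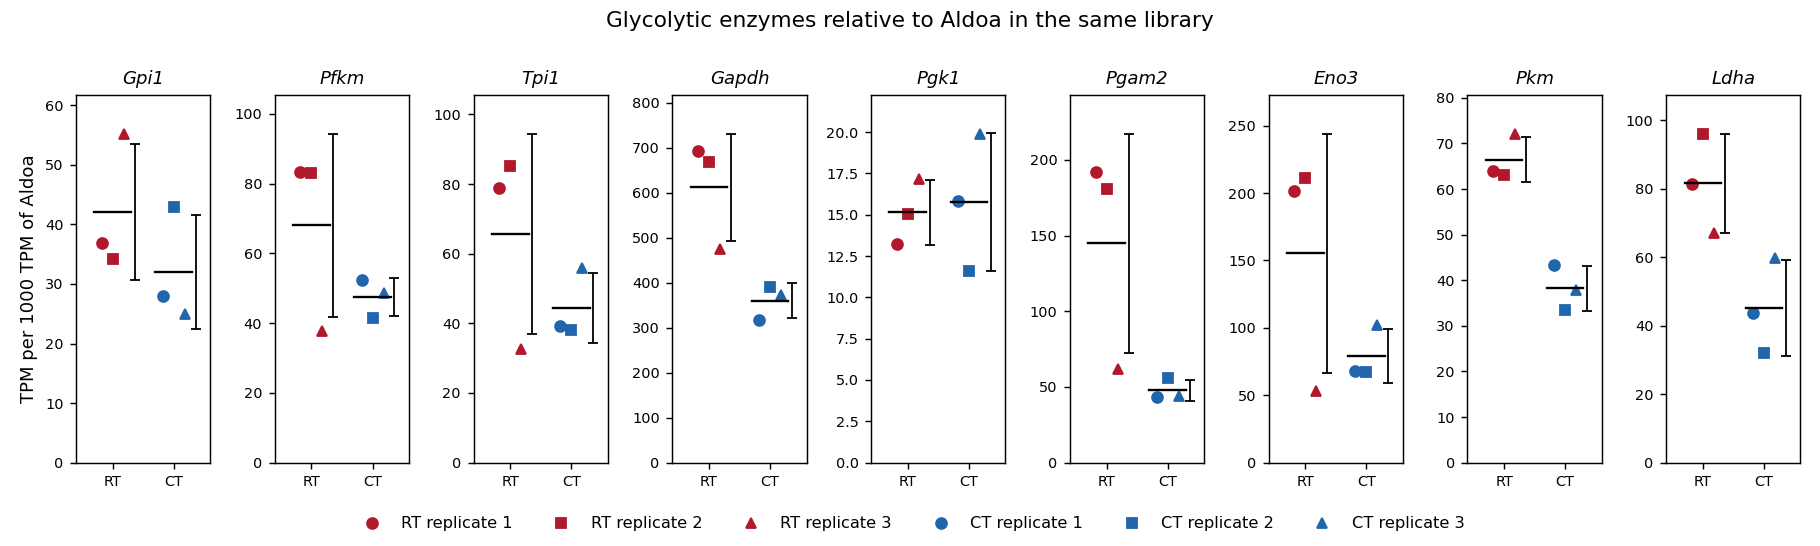
Each enzyme as TPM per 1000 TPM of Aldoa in the same library (y axis, linear from 0), in 3 RT (red, left) and 3 CT libraries (blue, right), with the replicate as marker shape, the mean as a line and the SD as an error bar. Gapdh, Pgam2, Pkm and Ldha have all RT points above all CT points, and Pgk1 overlaps.

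Isozymes encoded by other genes were scarce beside the muscle forms. Of 13 isozyme genes, 7 had a mean of at least 1 TPM, and 0 were called by limma or separated between the groups. Ldhc, Pgk2 and Pklr, the sperm and liver forms, were listed at 0 in every library. Pfkm made up 99.8%, 99.7% and 97.7% of the phosphofructokinase TPM in RT replicates 1, 2 and 3, against 99.6%, 99.7% and 99.6% in CT replicates 1, 2 and 3. Pgam2 made up 99.8%, 99.8% and 97.3% of its family in the RT replicates, against 99.0%, 99.1% and 98.9% in the CT replicates. Eno3 made up 98.9%, 99.1% and 91.3% of the enolases in the RT replicates, against 96.9%, 97.6% and 98.3% in the CT replicates. In each of the 3 families RT replicate 3 had the lowest share of the 6 libraries.

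The partner isozymes were highest there. Pfkl, the liver type subunit of phosphofructokinase, had 2.98, 2.56 and 12.39 TPM in the RT replicates, against 3.64, 2.59 and 2.97 TPM in the CT replicates. Pfkp, the platelet type, had 1.40, 1.81 and 6.40 TPM in the RT replicates, against 2.58, 1.45 and 1.58 TPM in the CT replicates. Pgam1, the mutase of most other tissues, had 9.17, 7.82 and 35.9 TPM in the RT replicates, against 13.1, 15.6 and 12.4 TPM in the CT replicates. Eno1, the enolase of most tissues, had 28.7, 21.4 and 50.7 TPM in the RT replicates, against 42.2, 29.2 and 27.7 TPM in the CT replicates, and its near copy Eno1b had 22.5, 19.1 and 48.2 TPM in RT, against 21.2, 23.9 and 16.7 TPM in CT. Reads of Eno1 and Eno1b may have been split between them, so each value is uncertain. The neutrophil markers were highest in the same library, and their part in these shares was not tested.

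Lactate dehydrogenase behaved otherwise. Ldha made up 94.6%, 95.9% and 97.2% of Ldha and Ldhb together in the RT replicates, against 94.3%, 97.7% and 94.6% in the CT replicates, with the highest share in CT replicate 2. Ldhb, the subunit typical of heart and slow muscle, had 106, 86.4 and 40.8 TPM in the RT replicates, against 81.4, 24.6 and 89.4 TPM in the CT replicates, and was lowest in both libraries that were low in slow fibre genes. The exact permutation test of the difference in shares, two-sided, gave p = 1 for Pfkm, Pgam2 and Eno3 and p = 0.8 for Ldha, adjusted p = 1 for all 4, in a design of 3 against 3 libraries that cannot go below 0.1.

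Around the enzymes, 0 genes of the pathway lists were called by limma with all 6 libraries. Of 13 tested genes of glucose entry and glycolytic control, 1 was higher and 3 were lower without overlap, with a median log2 difference of -0.21. Of all genes, 1.73% were higher and 19.3% lower in that way. Pfkfb3, which makes fructose 2,6-bisphosphate, the activator of phosphofructokinase, had 25.6, 54.0 and 73.3 TPM in the RT replicates, against 23.4, 8.42 and 11.4 TPM in the CT replicates. It was the member of that list that was higher in every RT library (log2 difference 1.75, SE 0.51, limma adjusted p = 0.288). Fbp2, the muscle fructose bisphosphatase, which runs the opposite reaction, had 57.0, 55.2 and 30.5 TPM in the RT replicates, against 13.2, 9.53 and 31.8 TPM in the CT replicates, with RT replicate 3 inside the CT range.

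Of 16 tested genes of the glycogen route, 0 were higher and 5 lower without overlap, beside 1.73% and 19.3% of all genes. The median log2 difference of the list was -0.47. Gyg, glycogenin, the primer of glycogen synthesis, had 176, 161 and 286 TPM in the RT replicates, against 519.85, 465 and 399.67 TPM in the CT replicates. Ppp1r3a, the muscle subunit that targets protein phosphatase 1 to glycogen, had 10.2, 10.3 and 8.31 TPM in the RT replicates, against 25.4, 19.7 and 29.9 TPM in the CT replicates. Neither passed (limma adjusted p = 0.276 for Gyg and 0.238 for Ppp1r3a).

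Of 15 tested genes that act on pyruvate, lactate and cytosolic NADH, 0 were higher and 7 lower without overlap. Of all genes, 1.73% were higher and 19.3% lower in that way. In the list 14 had a log2 difference below 0 (median -0.57), beside 78.5% of all genes. Mpc1, a subunit of the mitochondrial pyruvate carrier, had 289.61, 307 and 329.9 TPM in the RT replicates, against 538, 495 and 518 TPM in the CT replicates. Dlat, a subunit of pyruvate dehydrogenase, had 18.1, 17.2 and 15.7 TPM in the RT replicates, against 29.1, 27.2 and 27.0 TPM in the CT replicates. Pdk2, a kinase that inactivates pyruvate dehydrogenase, had 152, 132 and 148 TPM in the RT replicates, against 311, 288 and 193 TPM in the CT replicates. RT replicate 3 was on the side of its own group in all 3 genes, unlike in Pgam2 and Eno3 (limma adjusted p = 0.298 for Mpc1, 0.318 for Dlat and 0.306 for Pdk2). The 14 citric acid cycle enzymes, which burn the pyruvate that glycolysis delivers, were all below 0. Their median of -0.40 was near the -0.36 of all genes, and 6 of 14 were above the latter. Of the 14, 7 were lower without overlap, beside 19.3% of all genes. Among them Sdha, a subunit of succinate dehydrogenase, had 68.9, 67.3 and 77.0 TPM in the RT replicates, against 140.43, 112 and 149 TPM in the CT replicates. Ogdh, a subunit of the 2-oxoglutarate dehydrogenase complex, had 94.2, 80.2 and 101 TPM in the RT replicates, against 176, 175 and 141 TPM in the CT replicates.

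Of 18 tested regulators of glycolytic genes, 0 were higher and 7 lower without overlap, beside 1.73% and 19.3% of all genes. In that list 17 were below 0, beside 78.5% of all genes, with a median of -0.72. Egln3, an oxygen sensing prolyl hydroxylase that is itself induced by hypoxia, had 8.14, 8.59 and 36.2 TPM in the RT replicates, against 54.7, 115 and 63.2 TPM in the CT replicates (log2 difference -2.33, limma adjusted p = 0.276). Six4 and Eya1, a homeobox factor and a coactivator that drive the fast fibre programme in mice, had 0.72, 0.77 and 0.48 TPM and 2.69, 2.55 and 2.28 TPM in the RT replicates, against 2.30, 1.65 and 1.93 TPM and 4.51, 5.37 and 7.53 TPM in the CT replicates. Of 9 tested hypoxia targets outside glycolysis, 0 were higher and 2 lower without overlap, beside 1.73% and 19.3% of all genes. Their median log2 difference was -0.25, against -0.36 for all genes, with 5 of 9 above that median and 3 above 0. Bnip3, a mitophagy receptor, had 48.6, 56.4 and 274 TPM in the RT replicates, against 385, 482 and 342 TPM in the CT replicates, and Mxi1, a repressor of the Myc network, had 11.8, 10.3 and 10.9 TPM in RT, against 26.6, 20.7 and 19.5 TPM in CT. Ddit4, an inhibitor of mTORC1, had 18.9, 27.8 and 85.2 TPM in the RT replicates, against 88.5, 78.0 and 139 TPM in the CT replicates. In Bnip3, Egln3 and Ddit4, RT replicate 3 was far above RT replicates 1 and 2. Among the enzymes Gpi1, Pgk1 and Pkm also had their highest RT value in replicate 3, by smaller margins. In all the other enzymes replicate 3 was the lowest RT value. A link between these genes and the enzymes was not tested.

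Of 12 genes of the fast contractile and calcium apparatus, 9 had a log2 difference above 0 (median 0.11), with 0 higher and 1 lower without overlap. Without RT replicate 3 limma called 5 of them higher and 1 lower, beside 1.98% and 27.6% of all genes. Pvalb, the calcium buffer parvalbumin of fast fibres, had 12653, 14462 and 2591 TPM in the RT replicates, against 3232, 3451 and 4522 TPM in the CT replicates. As in Eno3, RT replicates 1 and 2 were above every CT library and RT replicate 3 below every one. Tnnc2, fast troponin C, had 34214, 33248 and 16158 TPM in the RT replicates, against 18327, 20408 and 17742 TPM in the CT replicates. Mybpc2, fast myosin binding protein C, went the other way, with 1215, 1136 and 1229 TPM in the RT replicates, against 1786, 1805 and 1931 TPM in the CT replicates. The mean log2 level of the list was 12.96, 12.96 and 11.70 in the RT replicates, against 12.25, 12.28 and 12.30 in the CT replicates, and that of the 10 glycolytic enzymes was 11.36, 11.28 and 10.67 in RT, against 10.99, 11.03 and 10.91 in CT. Both means were highest in RT replicates 1 and 2 and lowest in RT replicate 3.

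**Figure D4:**
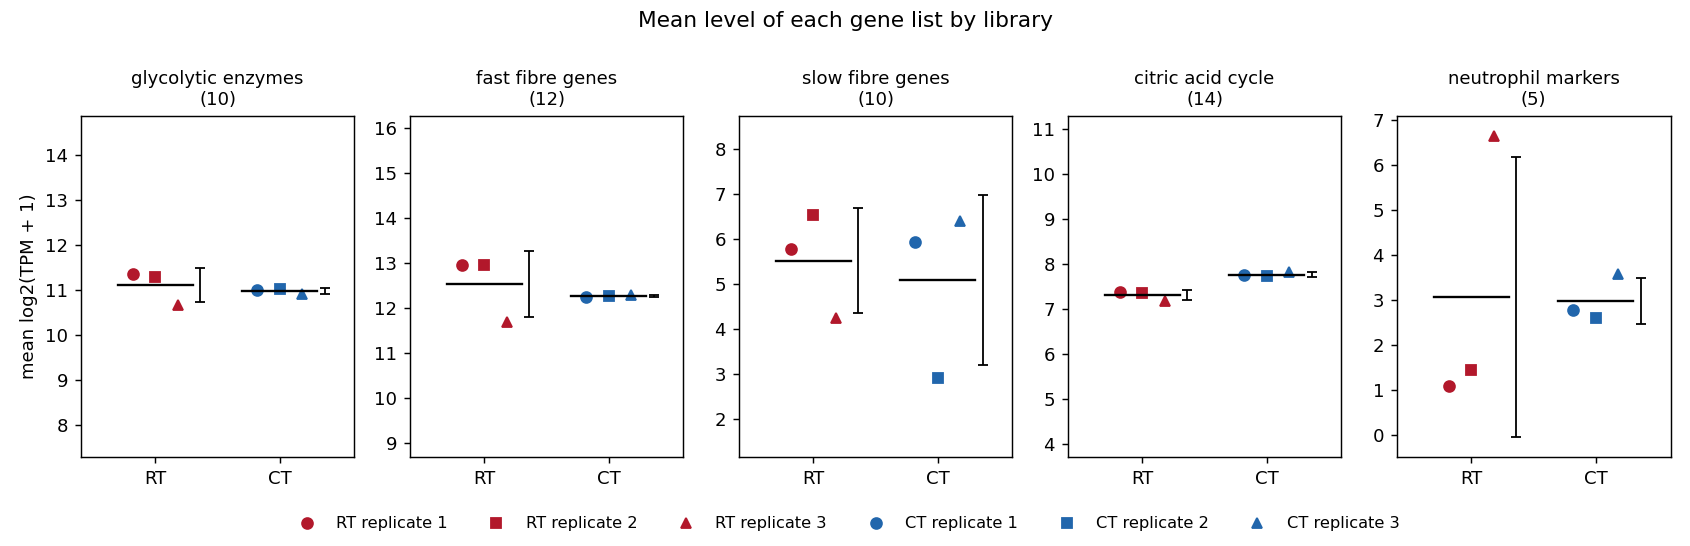
Mean log2(TPM + 1) of the listed genes in each library (y axes of equal span, log2 scale), for glycolytic enzymes, fast fibre genes, slow fibre genes, citric acid cycle enzymes and neutrophil markers, RT left in red and CT right in blue, with the mean as a line and the SD as an error bar. RT replicate 3 is lowest of the 6 in the glycolytic, fast fibre and citric acid cycle panels and highest in the neutrophil panel, and CT replicate 2 is lowest in the slow fibre panel.

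Slow fibre genes gave no called member (0 of 10) and no separated one, and 9 of 10 were above 0. Myl2 had 279.79, 536 and 58.1 TPM in the RT replicates, against 225, 29.4 and 333 TPM in the CT replicates. Myl3 had 156, 228 and 33.9 TPM in the RT replicates, against 90.9, 6.46 and 146 TPM in the CT replicates, and Myh7b had 2.93, 1.92 and 0.86 TPM in RT, against 1.63, 0.14 and 2.85 TPM in CT. These light and heavy chains of slow myosin were lowest in CT replicate 2 and next lowest in RT replicate 3, an order that no glycolytic enzyme shared.

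The genes whose profile over the 6 libraries was most like the mean profile of the members were sought among 10350 tested genes, by the root mean square difference of centred log2(TPM + 1) values. Ndufaf6, an assembly factor of respiratory complex I, was nearest at 0.0472, with 14.6, 13.3 and 8.38 TPM in the RT replicates, against 10.5, 11.4 and 9.33 TPM in the CT replicates. Ppa2, the mitochondrial inorganic pyrophosphatase, followed at 0.0640, with 31.6, 31.0 and 19.7 TPM in the RT replicates, against 27.8, 27.2 and 23.7 TPM in the CT replicates. Antkmt at 0.0674, Vkorc1 at 0.0833, Ston2 at 0.0838 and C1qtnf12 at 0.0847 came next. All 6 share with that mean profile the highest values in RT replicates 1 and 2 and the lowest in RT replicate 3, and with 6 libraries of the same study the likeness is a description only.

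Rows named as pseudogenes of the members, by the symbol followed by -ps or -rs, 11 in all, were small beside their parents. Listed at 0 in all 6 libraries were 5 of them, and the highest value was 7.73 TPM. Pseudogenes listed under other names were not searched for. The sources used here do not give how reads matching both a parent and a pseudogene were shared out.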

How the data were processed

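RNA-seq of gastrocnemius libraries, 3 RT and 3 CT, was analysed from a table of TPM deposited by the authors, in which each library sums to the same total. Tools named in the submitters' processing notes are HISAT2, StringTie and RSEM (versions and roles absent), and the build named there is mm9. Per the labels' protocols, a TruSeq kit was used on total RNA. The annotation used is not given in the sources. TPM holds no counts, so no count test was made and depth is unknown. Because TPM is a share of a fixed total, a few very abundant genes can lower all others.

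Groups came from the labels. Rows were matched by gene name, and those with a mean of at least 1 TPM were tested, 11938 in all, as log2(TPM + 1), in two-sided tests by limma 3.58.1 under R 4.3.3 (empirical Bayes with a trend, no covariates, Benjamini-Hochberg over all tested rows, threshold 0.05). Shares within 4 isozyme families were compared by exact permutation with scipy 1.17.1 in Python 3.11.15, and figures were drawn with matplotlib 3.10.9. The limma script was tested on simulated data with independent noise in each gene and no library standing apart, unlike these data. Named were all members and, of each other list, called genes filled up to 3 by the smallest unadjusted p, isozymes beside their partner, and the 6 genes most like the members. Of the genes this rule names, 3 are not reported here. The members and lists were chosen with earlier results of these data known. Markers of 11 cell types were summed in each library. Promoters are from RefSeq on GRCm38.p6, not the build of the table, so no position of the table is used. Alternatives were other pseudocounts, filters, scalings and tests, a replicate block, and each library left out in turn. A fit without both libraries low in slow fibre genes was added after seeing the data.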

Additional observations from a re-analysis of the deposited data

How the results depend on the processing

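Over 18 alternative settings the 10 enzymes gave 180 log2 differences, of which 154 kept their direction and side of the threshold, 20 changed sign and 6 passed the threshold where the fit to all libraries had not. Aldoa, Ldha, Pgam2, Pgk1 and Pkm changed sign under none of them, with ranges of -0.78 to -0.03, 0.16 to 0.85, 0.65 to 1.72, -0.75 to -0.06 and 0.08 to 0.77. The number of enzymes called higher by limma was 0 to 2 when 1 library was left out at a time, with 2 without RT replicate 3, and the number called lower was 0 in each. Without both CT replicate 2 and RT replicate 3, chosen after seeing the data, limma called 3 higher and 1 lower: Pgam2 at 1.72 (adjusted p = 0.0225), Eno3 at 0.93 (0.0276), Gapdh at 0.61 (0.0357) and Pgk1 at -0.70 (0.0247). All tested genes gave 281 higher and 4077 lower in that fit. Other calls over all genes ran from 0 to 236 higher and from 0 to 3298 lower.

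Sign changes reached the size of differences reported for other enzymes. With median-of-ratios scaling Gpi1 was at 0.370 and Pfkm at 0.400, with rescaling to the total without mitochondrial and the 20 most abundant features at 0.148 and 0.178, with quantile normalisation at 0.0403 and 0.0599, and without both libraries at 0.0512 and 0.346. Gapdh was at -0.000300 with quantile normalisation, and Tpi1 at -0.259 when scaled to the fast fibre genes. Leaving out each library in turn gave -0.0536 to 0.970 for Eno3, -0.31 to 0.240 for Gpi1, -0.26 to 0.373 for Pfkm and -0.23 to 0.470 for Tpi1. The differences in isozyme share, in percentage points, then ran from -0.947 to 0.107 for Pfkm, -0.503 to 0.759 for Pgam2, -2.50 to 1.37 for Eno3 and -0.283 to 1.45 for Ldha, and without RT replicate 3 the share differences of all 4 changed sign. The share difference of Ldha also changed sign without CT replicate 1 (-0.245) and without CT replicate 3 (-0.117). The median of all genes was -0.36 as deposited, -0.01 with median-of-ratios scaling, -0.20 rescaled, -0.03 by quantiles and -0.54 on the fast fibre scale, where that of the members was 0.15, 0.58, 0.35, 0.05 and -0.12, so the members' median lay above it each time. The cause of these changes was not tested.

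With the replicate number as a replicate block, limma called 0 members higher and 0 lower, and 4 genes higher and 0 lower in all, with Pgam2 at an adjusted p of 0.600. Deviations from the group means of same-numbered RT and CT libraries correlated at -0.0450, -0.112 and -0.201. Deviations within a group of 3 cancel out, so these values are tied to each other. They cannot decide whether libraries of the same number share anything besides the number. With 3 libraries a group, a wide interval leaves differences in either direction possible for most enzymes, and TPM gives no depth from which to set a detection limit.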
